A study of Mus musculus with 6 samples.

Results

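The globins of the mouse embryo were followed on 6 oligonucleotide arrays, each hybridised with total RNA from 1 sample labelled as a single heart at stage E12.5. The members were all probe sets annotated to the embryonic globins Hba-x, Hbb-y and Hbb-bh1 or to the adult globins Hba-a1, Hba-a2, Hbb-b1 and Hbb-b2. There were 15 of them among the 45037 probe sets tested, 7 for embryonic and 8 for adult globins. The globin chaperone Ahsp was not analysed here. A total of 3 arrays came from Sp3 knockout fetuses and 3 from wildtype fetuses, lettered a to c in each group. Sp3 is a zinc finger protein that binds GC-rich and CACCC promoter elements. No treatment was given in the labels, and strain, sex, litter and the deleted part of the gene are not given in the sources used here. Each array was taken as 1 animal from the labels of single hearts, and 3 arrays per group limit the precision of every value.

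The tissue label was set against defining markers before the globins were read. On all 6 arrays hepatocyte genes were bright, with a list median at the 98.8th percentile of genes and 16 of 18 genes measured, while of 20 heart muscle genes 16 lay below the 50th percentile. The mean log2 level of the hepatocyte list was 10.72 to 10.83 in knockout and 10.74 to 11.03 in wildtype, that of the heart muscle list 4.61 to 4.95 and 3.52 to 4.42, and that of a macrophage list of 15 genes 6.30 to 7.05 and 7.04 to 7.17. Fetal liver is the main site of definitive red cell formation at this stage, and the markers go against the label of heart. The samples are therefore called by genotype and letter, and the part of these other cells in the globin values was not tested. Knockout c was the lowest array for 2 of 16 hepatocyte genes and 1 of 20 heart muscle genes. It was also the lowest for all genes of the macrophage list except Fcer1g, Vcam1 and Cd163.

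Hemoglobin is a tetramer of paired alpha-type and beta-type chains, each holding a heme. Red cells of the yolk sac, the primitive lineage, make the embryonic chains zeta (Hba-x), epsilon-y (Hbb-y) and beta-h1 (Hbb-bh1) together with adult alpha chains. Red cells that mature in the fetal liver, the definitive lineage, make adult alpha chains from the twin genes Hba-a1 and Hba-a2 and adult beta chains. The adult beta genes differ between strains: one form of the locus carries Hbb-b1 and Hbb-b2, the other Hbb-bs and Hbb-bt. Around mid-gestation the blood holds cells of both lineages.

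The probe sets resolve these genes unequally. Single-gene annotation was given to 1 probe set of Hba-x, 3 of Hbb-y, 3 of Hbb-bh1, 2 of Hbb-b2, 1 of Hba-a1 and 1 of Hba-a2. The other 4 were annotated to several globins. Of these, 1417714_x_at, 1428361_x_at and 1452757_s_at covered Hba-a1 and Hba-a2 together, and 1417184_s_at covered Hbb-b1, Hbb-b2, Hbb-bs and Hbb-bt. Hbb-b1 had no probe set of its own. In the maker's naming, the ending _s_at marks probes common to several transcripts and _x_at marks probes that may also bind other sequences, so values of close paralogs may be mixed.

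The sequences upstream of the start sites are shown for the elements that the globin genes share or lack and for the likeness of the alpha twins. They are the 150 bases before the RefSeq start site on build GRCm38.p6, written along the gene's own strand, with capitals for motif matches found on either strand. The motifs searched were CACCC, bound by Klf and Sp proteins. A second was GATAA, bound by Gata1. Another was CCAAT, bound by NF-Y among others. The TATA box was searched as TATAA or its variant ATAAA. Both matched, overlapping, in Hba-x, and only ATAAA matched in Hbb-y.
Hba-x, chr11:32276450-32276599, plus strand: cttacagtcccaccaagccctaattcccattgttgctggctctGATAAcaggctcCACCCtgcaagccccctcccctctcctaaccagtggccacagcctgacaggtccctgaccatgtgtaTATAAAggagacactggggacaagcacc
Hba-a1, chr11:32283522-32283671, plus strand: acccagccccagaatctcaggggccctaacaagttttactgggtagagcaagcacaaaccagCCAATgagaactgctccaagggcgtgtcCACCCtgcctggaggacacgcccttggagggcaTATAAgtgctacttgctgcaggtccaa
Hbb-y, chr7:103853208-103853357, minus strand: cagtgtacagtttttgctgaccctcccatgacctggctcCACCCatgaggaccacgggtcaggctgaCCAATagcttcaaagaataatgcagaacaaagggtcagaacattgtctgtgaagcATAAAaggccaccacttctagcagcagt
Hbb-bs, chr7:103827929-103828078, minus strand: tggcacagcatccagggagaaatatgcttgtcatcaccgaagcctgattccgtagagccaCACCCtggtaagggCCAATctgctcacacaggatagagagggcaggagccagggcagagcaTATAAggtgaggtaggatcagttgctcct

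Each of these 4 windows held 1 CACCC, the core of the element bound by Klf1, the red cell Krüppel-like factor, and by Sp proteins. It began 95 bases upstream of the start site in Hba-x, 60 in Hba-a1, 111 in Hbb-y and 90 in Hbb-bs. The same letters were present in 37.4% of 32851 promoter windows of this length. A TATA-like match lay 27 to 29 bases upstream in all 4. Anywhere in the window and on either strand, TATAA or ATAAA was present in 28.7% of all windows, a share not limited to that position. CCAAT was found in Hba-a1, Hbb-y and Hbb-bs, against 24.5% of windows, and GATAA in Hba-x, against 13.3%. GGGCGG, the core of a GC box, was in none of the 4, against 28.6% of windows. The Hba-a2 window matched that of Hba-a1 at 147 of 147 aligned bases, while Hbb-bs and Hbb-bt matched at 106 of 149. These matches are letters in a window and say nothing of binding.

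Globin transcripts were among the brightest of every array. Of the 15 probe sets, 11 lay in the brightest 0.5% of all probe sets, 1 at the 95.2th percentile and 3 below the median level. Intensities are given on the log2 scale throughout, and levels of different probe sets are not compared as amounts, since each also depends on its probe sequences. The highest value of an array lay between 13.60 and 13.65, so a probe set near 13.4 had little scale left above it. In knockout a and wildtype a the brightest of all probe sets was the alpha globin probe set 1417714_x_at.

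**Figure D1:**
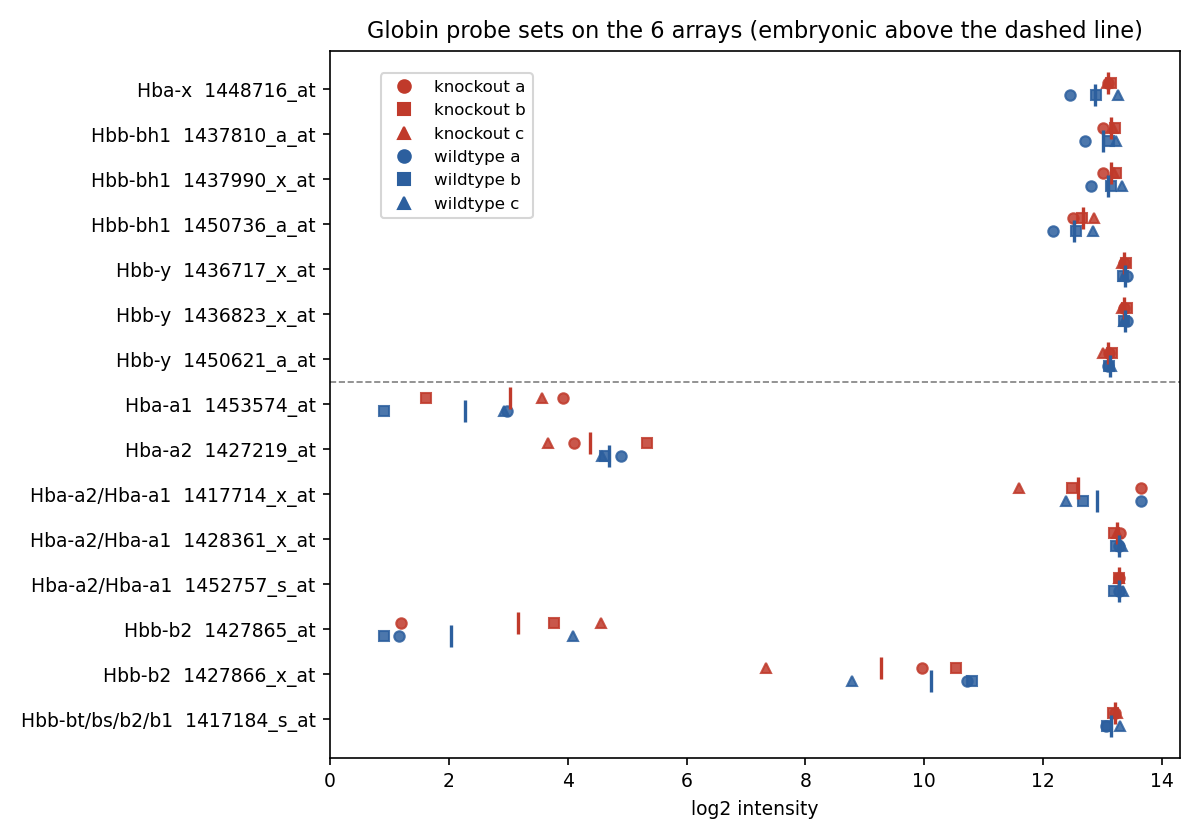
Log2 intensity (horizontal axis) of the 15 globin probe sets on the 6 arrays, knockout in red above and wildtype in blue below each row, with a bar at each group mean. The bright probe sets crowd between 12 and 13.7, whereas 1417714_x_at and 1427866_x_at spread widely within both groups and 3 adult probe sets lie below 6.

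The embryonic beta-type globin Hbb-y varied little over the 6 arrays. Its probe set 1436823_x_at was at 13.36, 13.41 and 13.33 in the knockout arrays, in the order of their letters, and at 13.41, 13.36 and 13.36 in the wildtype arrays. Its 3 probe sets ranged by only 0.09 to 0.16 over all arrays and lay 0.19 to 0.62 below the top of their array. Knockout c was the lowest array at all 3, at 13.32, 13.33 and 13.00, and the groups overlapped at all 3.

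The other embryonic globins varied more, and mainly among wildtype arrays. Hba-x, the zeta chain, was at 13.09, 13.15 and 13.07 in knockout and at 12.45, 12.89 and 13.26 in wildtype. Hbb-bh1, the beta-h1 chain, was at 13.01, 13.21 and 13.18 in knockout and at 12.70, 13.11 and 13.22 in wildtype at 1437810_a_at. Wildtype a was the lowest array at 4 of 4 probe sets of these genes, and wildtype c was the highest at 3 of 4. The knockout SD was below the wildtype SD at all 4, for Hba-x 0.04 against 0.40 (n = 3 each), a comparison made after the values were seen and not tested.

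Adult alpha globin read differently by probe set. At 1452757_s_at it was at 13.27, 13.28 and 13.27 in knockout and at 13.27, 13.20 and 13.35 in wildtype, and 1428361_x_at ranged by 0.13 over the 6 arrays. At 1417714_x_at, annotated to the same pair of genes, it was at 13.65, 12.49 and 11.59 in knockout and at 13.64, 12.67 and 12.39 in wildtype. Both arrays lettered a were at the top of their scale there, knockout c was lowest, and the range was 2.06. The single-gene probe sets were dim: Hba-a1 lay between 0.90 and 3.92 and Hba-a2 between 3.66 and 5.34, levels at which all probe sets scatter widely.

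Adult beta globin split likewise. The shared probe set 1417184_s_at was at 13.21, 13.17 and 13.24 in knockout and at 13.06, 13.07 and 13.30 in wildtype. The Hbb-b2 probe set 1427866_x_at was at 9.97, 10.54 and 7.34 in knockout and at 10.72, 10.81 and 8.79 in wildtype. Knockout c and wildtype c were the low arrays, over a range of 3.47. The second Hbb-b2 probe set, 1427865_at, was at 1.20, 3.77 and 4.56 in knockout and at 1.16, 0.90 and 4.08 in wildtype, so the arrays lettered c were high there. Its level lay at the 25.5th percentile of all probe sets, and of the 451 probe sets nearest in level 15.3% had a larger SD.

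The 2 spread-out probe sets were extreme for their brightness. The SD over the 6 arrays was 0.79 at 1417714_x_at and 1.37 at 1427866_x_at, whereas the median SD was 0.08 over the 451 brightest probe sets and 0.142 over those at the 95th to 96th percentile. Of the probe sets within 0.5 percentile points in level, 0 of 392 and 0 of 451 had a larger SD. For Hba-x the share with a larger SD was 2.68%, for the Hbb-bh1 probe sets 5.78% to 8.75% and for the Hbb-y probe sets 66% to 86.9%. These shares describe the arrays regardless of genotype.

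**Figure D2:**
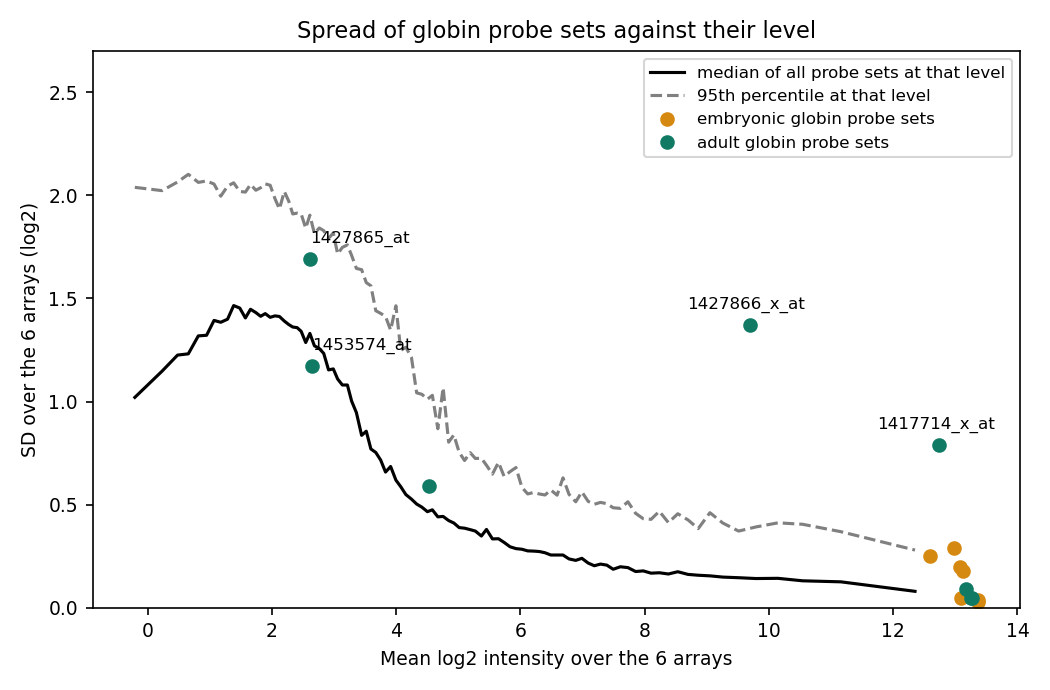
SD over the 6 arrays (vertical axis, log2) against mean log2 intensity for the globin probe sets, embryonic in orange and adult in green; lines give the median and the 95th percentile of all probe sets in classes of level. The adult probe sets 1427866_x_at, at an SD of 1.37, and 1417714_x_at, at 0.79, lie far above the 95th percentile line, and Hbb-y lies at the bottom.

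No globin probe set passed the test between knockout and wildtype. Of the 15, 0 passed a limma adjusted p of 0.05 with a variance trend, against 0.0311% of all probe sets, and 0 had an unadjusted p under 0.05, against 7.16%. Limma without the trend also called 0, with 0 at an unadjusted p under 0.05, against 0% and 5.99% of all probe sets. The groups overlapped at all 15, whereas 13% of all probe sets had no overlap. In knockout 8 were higher and 7 lower, with a median log2 difference of 0.001, against 0.02 over all probe sets and -0.023 over the brightest 1%. Embryonic globins divided into 4 higher and 3 lower and adult globins into 4 and 4.

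Sp3 itself, at its brightest probe set, was at 8.39, 8.34 and 8.61 in knockout and at 9.87, 9.77 and 9.54 in wildtype, with limma adjusted p = 0.00254. It passed on the same arrays with the trend and not without it, at 0.279, nor when knockout a was left out, at 0.0665. Whether these probes fall inside the deletion was not established here.

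The confidence intervals show what was resolved. For Hbb-y at 1436823_x_at the knockout mean minus the wildtype mean was -0.01, with a 95% interval from -0.12 to 0.10, and for the alpha pair at 1452757_s_at it was 0.00, from -0.12 to 0.12. For Hba-x it was 0.23, from -0.25 to 0.72, with limma adjusted p = 0.822, the lowest of the 15. Without wildtype a the Hba-x difference was 0.027, and without wildtype c it was 0.43. The Hbb-bh1 probe sets lay at 0.05 to 0.15, within -0.28 and 0.57. At 1417714_x_at the difference was -0.32, from -2.21 to 1.57, and at the Hbb-b2 probe set 1427866_x_at it was -0.82, from -3.98 to 2.33. Narrow intervals belong to probe sets near the top of the scale, and whether a change in transcript could still move such a value was not tested. The sign of the difference turned with quantile normalization at 1436823_x_at and with median centring at 1437990_x_at, 1452757_s_at and 1417184_s_at.

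**Figure D3:**
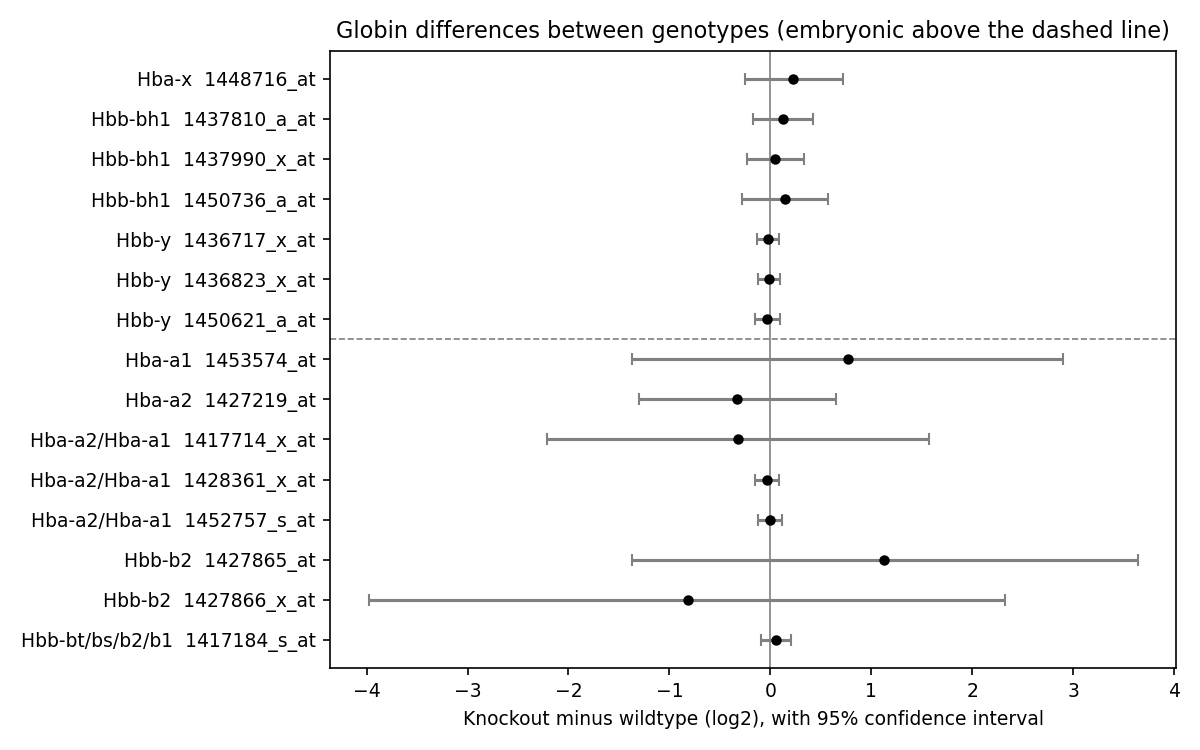
Knockout mean minus wildtype mean on the log2 scale for the 15 globin probe sets, with 95% confidence intervals from limma with a variance trend. Every interval spans 0, from -0.12 to 0.10 for the Hbb-y probe set 1436823_x_at to -3.98 to 2.33 for the Hbb-b2 probe set 1427866_x_at.

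Embryonic were then set against adult globins within each array. Each gene or shared gene set was centred on its mean over the 6 arrays, which removes the brightness of the probes, and averaged into an embryonic and an adult index. The embryonic index was at 0.00, 0.10 and 0.06 in knockout and at -0.29, -0.03 and 0.16 in wildtype. The adult index was at 0.12, 0.13 and -0.10 in knockout and at 0.13, -0.42 and 0.13 in wildtype. Embryonic minus adult was thus at -0.12, -0.03 and 0.15 in knockout and at -0.42, 0.39 and 0.03 in wildtype. Wildtype arrays held both the lowest and the highest value, the groups overlapped, and the group means were 0.00 ± 0.14 and 0.00 ± 0.41 (SD, n = 3 each).

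The adult index depends on which probe sets enter it. With the 3 probe sets below the median level left out, a choice made after the values were seen, the adult index was at 0.21, 0.25 and -0.89 in knockout and at 0.41, 0.32 and -0.28 in wildtype. Embryonic minus adult was then at -0.20, -0.14 and 0.95 in knockout and at -0.70, -0.35 and 0.44 in wildtype, and the arrays lettered c were highest in each group. Its knockout mean minus its wildtype mean moved from 0.001 to 0.402. Without the probe sets ending in _x_at and _s_at, which leaves only the 3 dim adult probe sets, that difference was -0.409. The size and the sign of an embryonic to adult difference between the genotypes were therefore not settled by these probe sets.

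**Figure D4:**
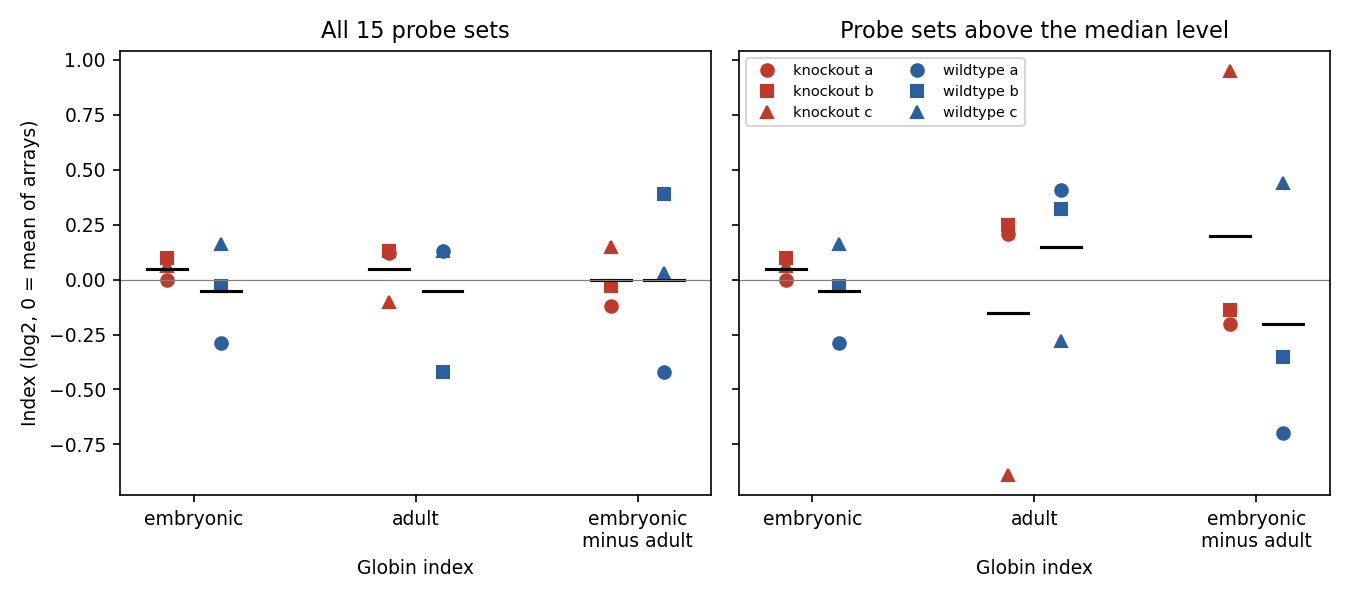
Embryonic, adult and embryonic minus adult globin index (vertical axis, log2, 0 at the mean of the arrays) per array with a bar at each group mean, from all 15 probe sets on the left and from those above the median level on the right. Knockout and wildtype overlap in every index, and on the right knockout c at 0.95 and wildtype c at 0.44 lie highest in embryonic minus adult.

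The Hbb-b2 probe set 1427866_x_at ordered the arrays as the median of a red cell list did. From high to low its order was wildtype b, wildtype a, knockout b, knockout a, wildtype c and knockout c, the order of the median of a list of 27 measured red cell genes. That median was at 0.41 and 0.25 in wildtype b and a, 0.20 and -0.05 in knockout b and a, -0.10 in wildtype c and -0.66 in knockout c. Alas2, the heme synthesis enzyme made in red cells, had this order too, at 12.18, 11.68, 11.64, 11.52, 10.72 and 9.57, as did Slc4a1, the band 3 anion exchanger. Of the red cell list 7 of 27 genes showed it, of the heme synthesis list 2 of 15, and of all genes 0.731%. No other globin probe set did. The order is that of the red cell list's own median and was picked after the values were seen. The count within that list, Slc4a1 included, is therefore no independent support. In bulk RNA, fewer red cells and less RNA per cell cannot be told apart.

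**Figure D5:**
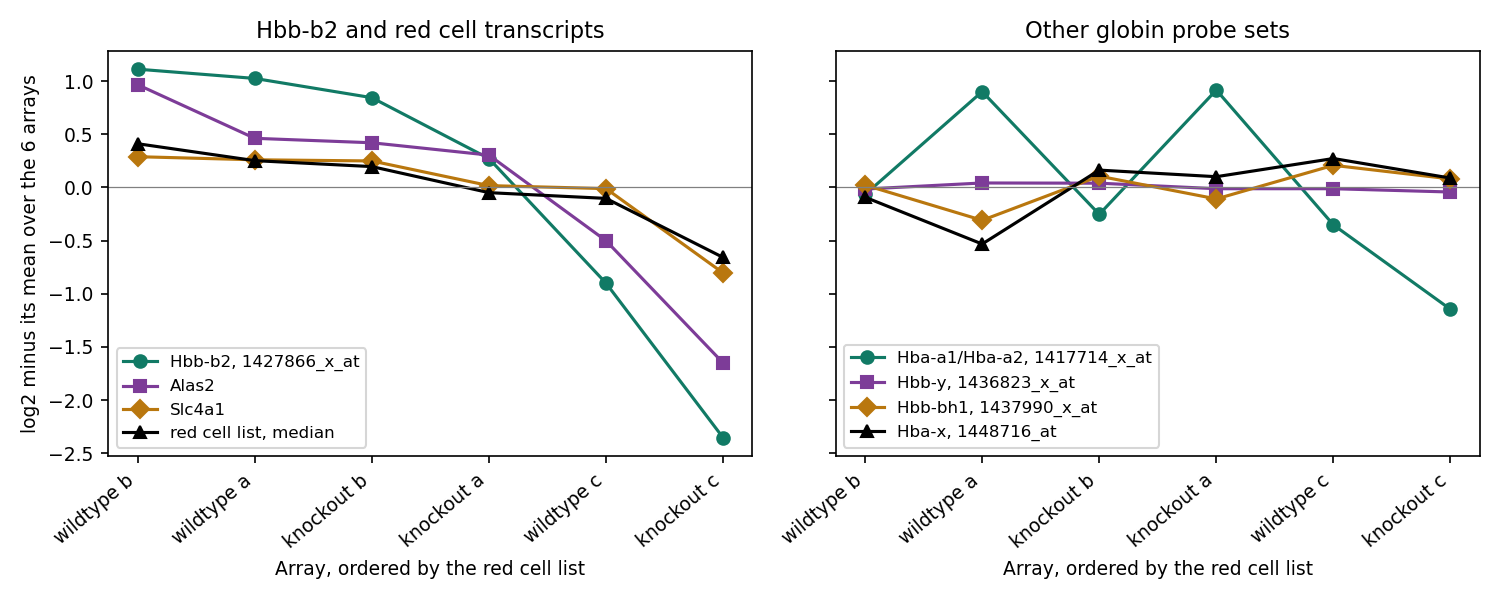
Log2 value minus its mean over the 6 arrays for red cell transcripts with the Hbb-b2 probe set 1427866_x_at (left) and for other globin probe sets (right), with arrays ordered by the median of the red cell list. On the left all lines fall from wildtype b to knockout c, whose values are -2.35 for the Hbb-b2 probe set and -1.65 for Alas2; on the right Hbb-y is flat and 1417714_x_at peaks in both arrays lettered a.

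Relative to the red cell list, the embryonic index was at 0.05, -0.09 and 0.72 in knockout and at -0.54, -0.44 and 0.26 in wildtype. The adult index relative to the list was at 0.17, -0.06 and 0.56 in knockout and at -0.12, -0.84 and 0.23 in wildtype. The groups overlapped in both, and knockout c was the highest array. The knockout mean lay 0.46 above the wildtype mean in each. For embryonic globins the difference was 0.204 without knockout c and 0.702 without wildtype c. For adult globins it was 0.279 without knockout c, 0.158 without wildtype b and 0.685 without wildtype c. With only the probe sets above the median level it was 0.063, and without those ending in _x_at and _s_at it was 0.88. The red cell list itself differed by -0.36 between knockout and wildtype, and each globin index by 0.11.

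Genes of heme synthesis, heme and iron supply and red cell structure mostly had lower values in knockout, while globin regulators as a list were evenly divided. None passed with genotype as the only term. Of 95 genes in lists of globin regulators, heme synthesis, heme and iron supply and red cell structure, 87 were measured. Limma with the trend called 0 of them, against 0.0495% of all 18193 genes, and limma without it also called 0. With the letter as a replicate block, an alternative, limma called 15 of the 87, all lower in knockout, and 258 of the 45037 probe sets. At an unadjusted p under 0.05 there were 2 higher and 13 lower, against 3.2% and 5.51% of all genes. Lower in knockout were 67 of the 87, with a median log2 difference of -0.20, against 9543 of the 18193 genes and -0.02, and the groups did not overlap in 13, against 15.1% of all genes.

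Regulators of globin genes were evenly divided, 15 higher and 15 lower, with a median log2 difference of -0.01. That median was 0.06 with quantile normalization and -0.09, with 19 of 30 lower, with median centring. The regulators that are also in the red cell list, Klf1, Tal1 and Nfe2, were all lower. Klf1 was at 11.89, 12.07 and 11.32 in knockout and at 12.03, 12.16 and 11.92 in wildtype, with limma adjusted p = 0.77, and its difference of -0.28 was -0.06 without knockout c. Bcl11a, a repressor of embryonic globin genes, was at 8.59, 8.77 and 9.06 in knockout and at 8.56, 8.14 and 8.86 in wildtype, with limma adjusted p = 0.749. Both overlapped between the groups. Lmo2, an adaptor of the Gata1 and Tal1 complex, was at 10.71 ± 0.16 and 11.03 ± 0.10 (SD, n = 3 each) with no overlap and limma adjusted p = 0.541. Klf3 was at 9.87 ± 0.18 and 10.17 ± 0.15, Klf2 at 4.91 ± 0.51 and 5.64 ± 0.22, and Sp1, the close relative of Sp3, at 10.73 ± 0.17 and 10.63 ± 0.16.

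Heme synthesis genes were lower in 14 of 15, with a median log2 difference of -0.23, or -0.15 with quantile normalization and -0.30 with median centring. Without knockout c they were lower in 9 of 15, with a median of -0.05. Slc25a38, the mitochondrial glycine carrier, was at 8.45, 8.86 and 8.57 in knockout and at 8.97, 9.30 and 9.08 in wildtype, without overlap and with limma adjusted p = 0.52. Alas2 was at 11.52, 11.64 and 9.57 in knockout and at 11.68, 12.18 and 10.72 in wildtype, with limma adjusted p = 0.882. Abcb10, a mitochondrial transporter, was at 10.17 ± 0.36 and 10.63 ± 0.17 and Cpox, coproporphyrinogen oxidase, at 11.31 ± 0.19 and 11.52 ± 0.04 (SD, n = 3 each). The brightest of the list, Glrx5, Urod and Slc25a39, differed by -0.10, -0.26 and -0.19. Without knockout c, Urod differed by -0.082, Abcb10 by -0.263 and Cpox by -0.114, and the signs of Glrx5, Slc25a39 and Alas2 turned.

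Genes of heme and iron supply were lower in 15 of 18, with a median of -0.15, which was -0.11 without knockout c. With quantile normalization that median was -0.10, with 13 lower, and with median centring -0.22, with 17 lower. Genes of macrophages, cells that also handle iron and heme, were lower in 13 of 15, with a median of -0.51. The groups did not overlap in 8 of these 15, against 15.1% of all genes. Hepatocyte genes were lower in 13 of 16, with a median of -0.14, and heart muscle genes higher in 16 of 20, with a median of 0.64. The limma fit with genotype as the only term called 0 genes in each of these 3 marker lists. Their part in the 4 pathway lists was not tested. Slc40a1, the iron exporter ferroportin, was at 9.04, 9.03 and 8.66 in knockout and at 9.50, 9.31 and 9.62 in wildtype, without overlap and with limma adjusted p = 0.35. Slc48a1, a heme transporter, was at 7.50 ± 0.19 and 8.09 ± 0.31 and Blvrb, biliverdin reductase B, at 11.53 ± 0.32 and 11.92 ± 0.15. Tfrc, the transferrin receptor, differed by -0.18, Slc25a37, the mitochondrial iron importer, by -0.52 and Fth1, the ferritin heavy chain, by -0.04. Without knockout c, Slc25a37 differed by -0.146, Tfrc by -0.083 and Blvrb by -0.23, and the sign of Fth1 turned, as it did without wildtype b.

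Genes of red cell structure, a list that shares Klf1, Tal1 and Nfe2 with the globin regulators, were lower in 26 of 27, with a median of -0.35. The exception was Car1, a carbonic anhydrase, at 8.50, 8.40 and 7.49 in knockout and at 6.77, 7.41 and 7.23 in wildtype, without overlap and with limma adjusted p = 0.52. Aqp1, a water channel of red cells and endothelium, was at 7.38, 7.76 and 7.97 in knockout and at 8.58, 8.32 and 8.77 in wildtype, with limma adjusted p = 0.201. Car2, the second carbonic anhydrase, was at 12.62, 12.80 and 12.38 against 13.06, 13.02 and 13.02, with limma adjusted p = 0.205. Slc4a1 differed by -0.36 and Prdx2, a peroxiredoxin, by -0.19. Knockout c was the lowest array for 24 of the 27 genes, against 21.9% of all genes. The macrophage list shared this, with knockout c lowest for all its genes except Fcer1g, Vcam1 and Cd163. Without knockout c the median of the red cell list was -0.09, with 23 of 27 lower, and Slc4a1 differed by -0.046 and Prdx2 by -0.073. Without knockout b or wildtype c the median was -0.52. On all 6 arrays it was -0.28 with quantile normalization and -0.42 with median centring.

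The other globins were dim. Of 11 further family members looked for, Mb, Cygb and Ngb, which are myoglobin, cytoglobin and neuroglobin, had a probe set of their own. All 3 lay below the 50th percentile of genes. Hbb-bs and Hbb-bt were read only in the shared probe set 1417184_s_at.

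The genes with array profiles most like each index were searched among 9092 genes above the median level. For the embryonic index they were Mtif2, Dffa, Acbd6, Alas1 and Map1s, with Pearson r between 0.977 and 0.983 over 6 arrays. For the adult index they were Tmem120a, Socs5, Lrrc28, Pdap1 and Igf1, with r between 0.978 and 0.991. With 6 arrays r exceeded 0.9 for 65 and 70 genes, so these names describe profiles only. With only the probe sets above the median level in the indices, the embryonic names were the same. The adult names were then Cox6a1, Ddias, Chac2, Calr and Dynll2, and 278 genes exceeded 0.9. For the Hbb-b2 probe set 1427866_x_at, a search added after its values were seen, 364 genes exceeded 0.9. The nearest 5 were Cox6a1, Stk11, Tmcc2, Agfg1 and Pklr, with r between 0.990 and 0.996. Pklr is the pyruvate kinase of red cells and liver. Tmcc2 was at 10.62, 11.27 and 8.17 in knockout and at 11.26, 11.85 and 9.41 in wildtype.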

How the data were processed

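Expression was measured on 6 arrays, and groups and letters came from the sample titles. Values in the authors' deposited table are linear intensities from 0.0562 to 12897, with medians of 22.5 to 26.7 per array. GCOS and RMA appear in the submitters' processing notes without role or version, so the program behind the values is unknown. Log2 was taken without further normalization, 64 control probe sets were left out, and 45037 probe sets were tested in R 4.3.3 with limma 3.58.1 (lmFit, eBayes with a variance trend and robust estimation, two-sided, Benjamini-Hochberg over all probe sets). The trend was used because the spread falls steeply with intensity. On simulated data, with 200 bright probe sets changed, this fit recovered 22% at a log2 change of 0.5 and 97.5% at 1, against 0% and 0% without the trend. Since simulated spreads followed level, that favours the trend fit.

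A gene of a list was read by its single-gene probe set of highest mean. Of 15 member probe sets 0 were filtered out. Probe sets were named from the platform annotation, and promoter sequences came from RefSeq, GRCm38.p6, for Hba-x, Hba-a1, Hba-a2, Hbb-y, Hbb-bs and Hbb-bt of the globins. Hbb-bh1, Hbb-b1 and Hbb-b2 are named only. Members, lists and the fit were chosen with earlier results of these data known. Named were all members, of each list the 3 genes of smallest p and the 3 brightest, Klf1, Bcl11a, Alas2 and Sp3, and the 5 genes most like each index. The Tmcc2 and Pklr values, the array order and the spread at like level were added after the data were seen. Nothing says whether samples shared a litter. Alternatives were other variance models, quantile normalization, median centring, 16 units added before log2, a filter on dim probe sets, array weights, the letter as a block, each array left out and other probe sets in the indices.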

Additional observations from a re-analysis of the deposited data

How the results depend on the processing

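No globin probe set passed under any of the 14 alternatives, with limma adjusted p from 0.209 to 0.999, and the direction held in 190 of 207 recomputed differences. With quantile normalization the Hbb-y probe set 1436823_x_at turned to 0.009. With median centring, 1417184_s_at turned to -0.017, 1437990_x_at to -0.024 and 1452757_s_at to -0.075. When each array was left out, log2 differences ran from -0.036 to 0.037 at 1452757_s_at, -0.861 to 0.170 at 1417714_x_at, -0.815 to 0.025 at 1427219_at, -1.481 to 0.146 at 1427866_x_at, -0.033 to 0.009 at 1436823_x_at, -0.064 to 0.015 at 1450621_a_at, -0.042 to 0.001 at 1436717_x_at, -0.031 to 0.233 at 1437810_a_at, -0.089 to 0.169 at 1437990_x_at and -0.029 to 0.304 at 1450736_a_at. They ran from -1.023 to 0.053 for Alas2, -0.333 to 0.033 for Slc25a39, -0.166 to 0.021 for Glrx5 and -0.126 to 0.047 for Fth1. The cause of these turns was not tested. The Sp3 call was lost without the trend and without knockout a. The adult index difference of 0.106 became 0.523 without _x_at and _s_at probe sets and -0.294 with only probe sets above the median level, and embryonic minus adult became -0.409 and 0.402. These sets leave different adult probe sets in the index.

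With the letter as a replicate block, limma called 258 of the 45037 probe sets, of them 0 globin probe sets. It called 15 of the 87 pathway genes, 15 of them lower in knockout. Deviations of arrays of the same letter correlated at 0.010 for a, 0.308 for b and 0.436 for c. Knockout b and c correlated best with the wildtype array of their own letter, against at most 0.070 and -0.072 with another, and knockout a did not, against 0.128. The labels do not say what the letters mark, and the letters were not taken as pairs in the main fit. Whether they mark pairs was not settled, and the count of pathway genes called, 0 or 15, depends on that choice. The other alternatives left the count of pathway genes at 0. Most globin probe sets lie close to the top of the scale, and whether that limits what these arrays can resolve was not tested.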
